A study of Mus musculus with 34 samples.

Results

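The genes of the complement system were followed in cells of mouse visceral fat other than adipocytes. These cells, called the stromal vascular fraction (SVF), pellet after a collagenase digest and hold macrophages and other immune cells, progenitors and fibroblasts, endothelial cells and mesothelial cells. The set held 30 genes of the 32098 listed, namely the components, receptors and regulators of complement that both deposited tables list, and Cfd (adipsin) was left out because adipocytes make it. Libraries came from male C57BL/6J mice that began at 6 weeks of age either a high fat diet (HFD) with 60% of its calories from fat or a control diet (CHOW), and stayed on it for 8, 20 or 34 weeks before a short fast and harvest. CHOW was represented by 4, 5 and 7 libraries at these times, and HFD by 6 at each. CHOW mice ate either of a pair of control formulas (D12450B or D12450K), and the labels do not tie libraries to one or the other. The libraries carry separate replicate numbers, but the labels do not say that each is a separate mouse, so p-values measure the spread between these libraries.

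Complement is a cascade of plasma and tissue proteins that tags particles for uptake and calls in leukocytes. C1q, built of the chains of C1qa, C1qb and C1qc, is made mainly by macrophages and starts the classical pathway together with the proteases C1r and C1s, which cut C4 and C2. Factor B (Cfb) and properdin (Cfp) drive the alternative pathway around C3, the C5 to C9 proteins form the terminal pore, C3ar1 and C5ar1 sense the fragments C3a and C5a, and Serping1, Cd55, Cd59a and Cfi hold the cascade back. In fat, C1r, C1s, C3 and Serping1 are known as products of fibroblast-like stromal cells.

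Expression is given in TPM, a length-corrected share of each library's transcripts, so levels may be compared between genes. Of the 30 members, 26 reached the minimum for testing (1 TPM or more in at least 4 libraries at 8 and 20 weeks, or 6 at 34 weeks) in both tables. The other 4, Hc (complement C5), Cfi (factor I) and the lectin pathway proteases Masp1 and Masp2, stayed under it. Summed over all 30 genes, complement took from 0.747% ± 0.150 (SD, n = 6) of all TPM on HFD at 8 weeks to 1.28% ± 0.177 (SD, n = 6) on HFD at 34 weeks. The first group includes replicates 3 and 6, which held much RNA of other tissues. The part of this RNA in the low share of the group was not tested. The 34 week libraries are in a table of their own, so the difference between these ends was not tested.

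Several members lie side by side in the genome. C1qa, C1qc and C1qb lie next to each other on chromosome 4 (GRCm38, gencode M21, from 136880129 to 136898803, minus strand). C1rl, C1ra and C1s1 are neighbours on chromosome 6 (from 124493113 to 124542359), and C4b, C4a, Cfb and C2 lie within one stretch of chromosome 17 (from 34728380 to 34898265). RefSeq promoters (GRCm38.p6) were at hand for 20 of the 30 members. The 250 bases before the RefSeq start of C1qb, C1rl, C1s1 and C3 are shown because C1qb rose on HFD at 20 weeks while the others, neighbouring proteases and the central component, fell. Capitals mark matches on either strand to GAGGAA (an ETS type motif bound by the macrophage factor PU.1), to TTNNGNAA (C/EBP) or to the NF-kB motif, and no capitals of different motifs overlap in them.

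C1qb (chr4:136886201-136886450, minus strand): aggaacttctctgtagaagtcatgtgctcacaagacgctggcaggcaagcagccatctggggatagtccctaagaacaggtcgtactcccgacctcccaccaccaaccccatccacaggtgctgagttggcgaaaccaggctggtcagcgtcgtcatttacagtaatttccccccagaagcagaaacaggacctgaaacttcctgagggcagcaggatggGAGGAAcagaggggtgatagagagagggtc

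C1rl (chr6:124492863-124493112, plus strand): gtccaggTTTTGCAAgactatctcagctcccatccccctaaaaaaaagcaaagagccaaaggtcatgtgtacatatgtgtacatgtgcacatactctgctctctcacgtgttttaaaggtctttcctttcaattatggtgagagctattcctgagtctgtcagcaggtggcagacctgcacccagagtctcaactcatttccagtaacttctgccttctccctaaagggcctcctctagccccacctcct

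C1s1 (chr6:124542360-124542609, minus strand): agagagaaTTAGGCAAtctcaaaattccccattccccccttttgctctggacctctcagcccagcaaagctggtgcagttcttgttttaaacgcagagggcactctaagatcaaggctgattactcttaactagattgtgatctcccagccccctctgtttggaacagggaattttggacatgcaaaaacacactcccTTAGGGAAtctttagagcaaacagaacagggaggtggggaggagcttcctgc

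C3 (chr17:57228137-57228386, minus strand): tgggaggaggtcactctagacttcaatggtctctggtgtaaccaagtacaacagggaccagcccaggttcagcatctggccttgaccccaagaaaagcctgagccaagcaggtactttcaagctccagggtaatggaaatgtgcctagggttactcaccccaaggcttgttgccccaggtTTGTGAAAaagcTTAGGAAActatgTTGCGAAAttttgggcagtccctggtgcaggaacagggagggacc

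C1qb held 1 GAGGAA match, at -30 to -25 from its start, and no C/EBP match. C3 held 3 C/EBP matches, all between -70 and -38, C1s1 held 2 and C1rl held 1, and none of these 3 windows held GAGGAA. Among the 20 members with an entry, 11 (55.0%) held the C/EBP letters, 4 (20.0%) GAGGAA and 1 (5.0%) the NF-kB motif in these 250 bases. Each member was scored by 1 entry, that with its start farthest upstream. Of all 32851 promoter entries, where a gene can count more than once, 36.8%, 23.3% and 7.25% did, so the shares are not fully alike. The C/EBP letters did not follow the direction of change at 20 weeks. C1qc, also called higher on HFD at 20 weeks, held GAGGAA, a C/EBP match (-81 to -74) and the NF-kB motif. C/EBP matches were also held by C1ra and C6, which fell in the same comparison. C5ar1 and C7, not called there, held C/EBP matches too. They rose on HFD from 8 to 20 weeks, as C1ra did, so they show no opposite direction. Cfb, Clu and C2, which fell at 20 weeks, had no promoter entry. These matches describe letters and not bound sites.

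Levels per length spanned a wide range. C3 was the most abundant by its median over the 34 libraries (2085 TPM, range 894 to 4526), followed by C1qb (1638 TPM, range 727 to 2993), C1qa and C1qc (both 1093 TPM), Serping1 (1027 TPM) and C1s1 (609 TPM). The ranges of C1qa, C1qc and Serping1 overlapped almost wholly, so their order carries no weight. C4b (303 TPM), Cfp (301 TPM), C7 (299 TPM), Cfb (265 TPM), C1ra (255 TPM) and C5ar1 (219 TPM) formed a middle group whose ranges also overlapped. At the low end C1rl had a median of 3.79 TPM and C6 of 3.59 TPM. Masp2, Masp1 and Hc had medians of 0.0852, 0.185 and 0.200 TPM, and Cfi was listed at 0 in its median library and reached 1 TPM in only 1 of the 34. Over all libraries C4a ran from 2.21 to 30.1 TPM, C5ar2 from 1.62 to 16.7 TPM, Cd59a from 5.07 to 108 TPM, Vtn from 10.7 to 46.4 TPM and C1qbp, a mitochondrial protein that also binds C1q, from 28.9 to 94.6 TPM. An even member was Cr1l (Crry), the rodent regulator of C3 convertases, which ranged only from 77.5 to 129.9 TPM.

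**Figure D1:**
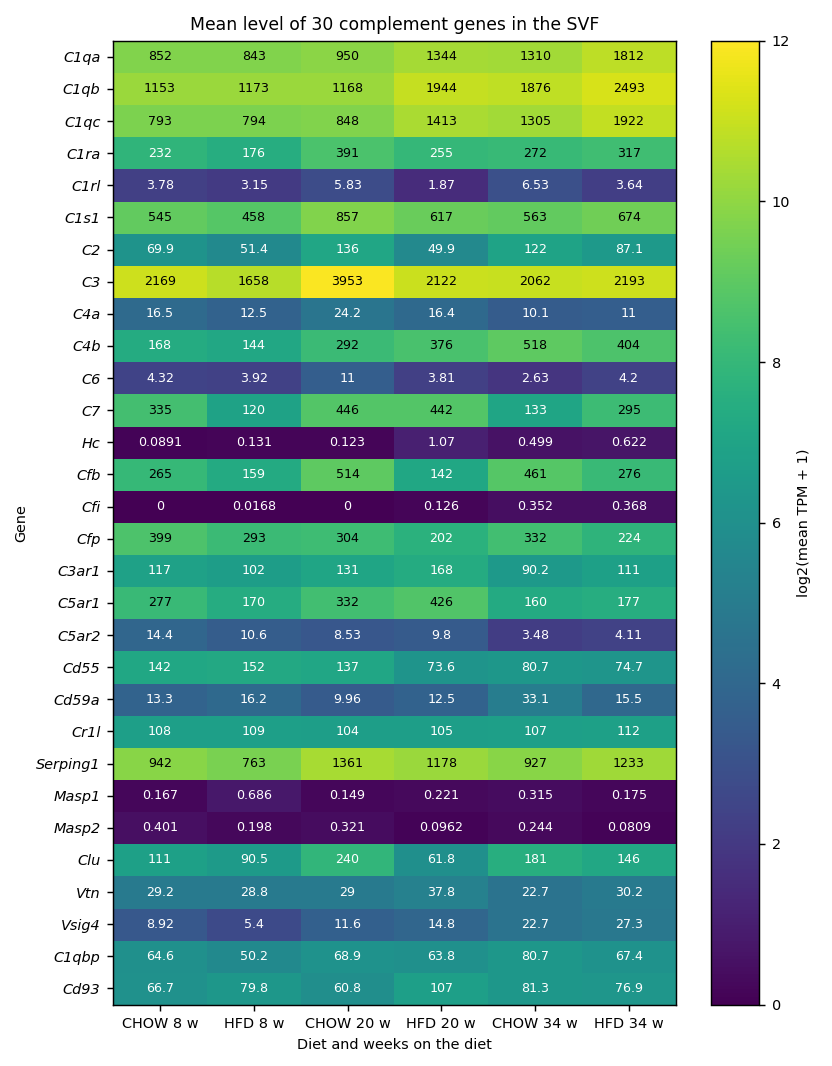
Mean level of each of the 30 complement genes (rows) in the 6 diet and time groups (columns), with the mean TPM printed in each cell and log2(mean TPM + 1) as colour. C3 stands highest in CHOW at 20 weeks (3953 TPM), the C1q chains stand highest on HFD at 34 weeks (C1qb 2493 TPM), and Hc, Cfi, Masp1 and Masp2 stay near 0.

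Some libraries carried RNA of other tissues, which matters because TPM is a share. HFD replicate 3 at 8 weeks held 117700 summed TPM of 6 seminal vesicle genes, HFD replicate 6 at 8 weeks held 267900 summed TPM of 5 erythroid genes, HFD replicate 5 at 20 weeks held 11430 summed TPM of 6 germ cell genes, and CHOW replicates 5 to 7 at 34 weeks were rich in adipocyte genes (up to 36000 summed TPM over 8 genes, in replicate 6). Each result was therefore also computed without these 6 libraries, which are meant below by the libraries with RNA of other tissues. Other libraries that held such RNA were kept. At 20 weeks the 5 erythroid genes summed to 27330 to 130000 TPM on CHOW, highest in replicate 5, and to 12620 to 30450 TPM on HFD. HFD replicate 2 at 34 weeks held 5038 summed TPM of germ cell genes. None of 8 macrophage and 9 progenitor and fibroblast genes was at 0 throughout a group. The same held for the adipocyte, erythroid and germ cell genes, so this is no check of the purity of the pellet. The 6 hepatocyte genes summed to at most 25.6 TPM in any library. In bulk RNA fewer cells of a type and less RNA per cell cannot be told apart.

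At 8 weeks on diet 0 of the 26 tested members passed an adjusted p of 0.05 (limma on log2(TPM + 1), Benjamini-Hochberg over 16808 genes), against 0.0238% of all tested genes. An unadjusted p under 0.05 was reached by 7 members. The share of all genes at that cut is not given, here or below, so such counts are not read further. Of the 26 differences 22 were below 0, and the median difference was -0.30 log2 units against -0.08 over all tested genes. Without HFD replicates 3 and 6 at 8 weeks and the other libraries with RNA of other tissues, 17 of the 26 were below 0 and the median was -0.16 against 0.06 over all genes. No member was separated between the groups, against 2.11% of all genes. C7, a component of the terminal pore, came nearest. It stood at 365, 322, 196 and 455 TPM in the CHOW libraries and at a lowest of 45.1, a median of 91.2 and a highest of 278 TPM in the HFD libraries. Only HFD replicate 5 lay inside the CHOW range. The fitted difference of C7 was -1.64 ± 0.35 (SE) log2 units with a limma adjusted p of 0.0897. That value crossed the threshold without HFD replicate 5 (adjusted p = 0.00668) or without CHOW replicate 3 (0.0282), with library quality weights (0.00769) and with a macrophage score as covariate (0.0202). Cfb differed by -0.73 ± 0.30 (adjusted p = 0.418) and C3 by -0.46 ± 0.22 (adjusted p = 0.512), while the C1q chains differed by -0.04 to -0.05. Without those libraries the differences of the chains turned to 0.16 ± 0.21 (C1qa), 0.23 ± 0.24 (C1qb) and 0.20 ± 0.23 (C1qc).

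At 20 weeks 13 of the 26 members passed (50.0%), against 14.3% of the 16808 genes tested. Of these 3 were higher on HFD, where 9.32% of all genes were called higher, and 10 were lower, where 4.99% of all genes were called lower. The libraries of both diets did not overlap for 7 members (26.9%; 1 higher, 6 lower), against 9.19% of all genes. The C1q chains C1qb and C1qc and the receptor Cd93 rose, while the chain C1qa did not pass. The C1 proteases C1ra, C1rl and C1s1 fell, as did C2, C3 and the alternative pathway genes Cfb and Cfp. The terminal component C6 and the regulators Cd55 and Clu fell too. Leaving out CHOW replicate 4 took the calls to 7, and leaving out CHOW replicate 3, HFD replicate 2 or HFD replicate 3 took them to 8 each, all lower on HFD. The median difference over the members was -0.07 log2 units and that over all genes 0.08.

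The C1q chains, which recognise antibody and dying cells, were higher on HFD at 20 weeks. C1qb stood at 1305, 1909.9, 775, 973 and 878 TPM in the CHOW libraries, and at a lowest of 1503, a median of 1934 and a highest of 2383 TPM in the HFD libraries. Only CHOW replicate 2 lay inside the HFD range. C1qb rose by 0.78 ± 0.24 (SE) log2 units (limma adjusted p = 0.0352). C1qc stood at 985, 1286, 599, 701 and 672 TPM on CHOW and at 1028, 1408 and 1814 TPM (lowest, median, highest) on HFD, again with CHOW replicate 2 alone inside the HFD range. C1qc rose by 0.75 ± 0.23 (adjusted p = 0.0335). C1qa stood at 1108, 1383, 650.4, 833 and 774 TPM on CHOW and at 1022, 1317 and 1779 TPM on HFD, a difference of 0.52 ± 0.20 that did not pass (adjusted p = 0.0913). Cd93, a receptor of macrophages and endothelium once named the C1q receptor, was separated between the groups. It stood at 56.1, 68.5, 61.8, 64.9 and 52.5 TPM on CHOW and at 83.7, 106 and 130.4 TPM on HFD, and rose by 0.80 ± 0.25 (adjusted p = 0.0362).

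Macrophage genes moved in the same libraries. Of 8 general macrophage genes 3 were higher on HFD at 20 weeks, of 8 lipid-associated macrophage genes 7 were higher, and of 7 resident macrophage genes 5 were lower. The summed macrophage genes ran from 3701 to 8843 TPM on CHOW, highest in replicate 2, and from 6341 to 11690 TPM on HFD. With the macrophage score as a covariate the difference of C1qb was 0.13 (limma adjusted p = 0.519), that of C1qc 0.17 (0.483) and that of Cd93 0.29 (0.441). The part of macrophages in these differences was not tested. The calls of C1qb and C1qc were also lost without any 1 of CHOW replicates 3, 4 and 5 or HFD replicates 1, 2 and 3 (adjusted p up to 0.105 and 0.0979), and that of Cd93 without any 1 of CHOW replicates 1, 3, 4 and 5 or HFD replicates 1 to 4 (up to 0.0884). With no filter on low genes C1qb (0.0687), C1qc (0.0630) and Cd93 (0.0630) missed the threshold too, so that none of the 3 higher calls was kept there. Without the libraries with RNA of other tissues all 3 chains passed (C1qa 0.59 ± 0.19, adjusted p = 0.0377).

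The proteases that bind C1q moved the other way. C1ra stood at 363, 353, 465, 384 and 389 TPM on CHOW and at 214, 261 and 292 TPM (lowest, median, highest) on HFD at 20 weeks. C1ra fell by 0.62 on the log2 scale (SE 0.15, limma adjusted p = 0.0113). C1s1 stood at 843, 760.0, 1047, 873 and 760.5 TPM on CHOW and at 519, 633 and 690.5 TPM on HFD, and fell by 0.47 (SE 0.14, adjusted p = 0.0340). C1rl, a C1r-like protease, had the steepest fall of this group, from 6.88, 4.80, 6.47, 6.34 and 4.67 TPM to 1.01, 2.12 and 2.32 TPM, by 1.26 (SE 0.18, adjusted p = 0.000169). None of these genes had an HFD library inside the CHOW range. C1rl kept its call under the 10 alternatives in which it was tested (it is too low for the mean of 5 TPM), while that of C1s1 was lost without any 1 of CHOW replicates 1, 3 and 4 or HFD replicates 2 and 3 (adjusted p up to 0.102) and with no filter (0.0542). Reads of C1ra and C1s1 could in part be assigned to their near copies C1rb and C1s2, which averaged under 1.3 TPM in both groups at 20 weeks. Their inhibitor Serping1 (C1 inhibitor) differed less, by -0.21 ± 0.14 (adjusted p = 0.301), with 1361 ± 79.9 TPM (SD, n = 5) on CHOW and 1178 ± 137 TPM (SD, n = 6) on HFD.

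C3 and the alternative pathway were lower on HFD at 20 weeks. C3, the component on which all pathways meet, stood at 3812, 4526, 4341, 3416 and 3672 TPM on CHOW and at 1891, 2032 and 2665 TPM on HFD. The groups were far apart, and C3 fell by 0.90 on the log2 scale (SE 0.21, limma adjusted p = 0.00686). Cfb (factor B) and Clu (clusterin) showed the largest differences at this time, and their order is within their errors. Cfb stood at 431, 435, 736, 596 and 372 TPM on CHOW and at 122, 128 and 208 TPM on HFD, and fell by 1.83 (SE 0.28, adjusted p = 0.000261). Cfp (properdin), which steadies the alternative convertase, stood at 385, 329.5, 239, 258 and 308 TPM on CHOW and at 139, 188 and 332 TPM on HFD. Its groups overlapped, and its fall of 0.63 (SE 0.21, adjusted p = 0.0444) lost its call when any 1 library was left out other than CHOW replicate 3 or HFD replicate 3 (adjusted p up to 0.101), and without the libraries with RNA of other tissues. C3 and Cfb kept their calls under every alternative tried. C6, a terminal component of low level, stood at 12.0, 11.2, 10.1, 12.3 and 9.33 TPM on CHOW and at 2.25, 3.25 and 7.70 TPM on HFD, and fell by 1.39 (SE 0.26, adjusted p = 0.00181). C7 differed by only -0.04 ± 0.32 (adjusted p = 0.952, 95% interval -0.67 to 0.59).

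C2, which C1s cuts to form the classical convertase, stood at 114, 61.9, 186, 137 and 184 TPM on CHOW and at 38.6, 47.7 and 69.7 TPM on HFD at 20 weeks. CHOW replicate 2 alone lay inside the HFD range, and C2 fell by 1.36 on the log2 scale (SE 0.33, limma adjusted p = 0.0103). Clu (clusterin), a fluid phase brake on the terminal pore, stood at 189, 77.6, 338, 271 and 327 TPM on CHOW and at 46.8, 60.7 and 78.9 TPM on HFD, and CHOW replicate 2 was again the only CHOW library inside the HFD range. Clu fell by 1.79 (SE 0.35, adjusted p = 0.00239). Cd55 (decay accelerating factor) stood at 166, 83.4, 152, 185 and 100.3 TPM on CHOW and at 38.0, 77.7 and 99.2 TPM on HFD, and fell by 0.88 (SE 0.25, adjusted p = 0.0255). The call of Cd55 was lost without any 1 of CHOW replicates 1, 3 and 4 or HFD replicate 3 (adjusted p up to 0.0812). C4b, the partner of C2, went the other way without passing (0.38 ± 0.17, adjusted p = 0.121).

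Other cell type markers moved beside these genes. All 7 mesothelial genes were lower on HFD at 20 weeks, with summed levels of 227 to 779 TPM on CHOW and 68.8 to 226 TPM on HFD. Of 9 progenitor and fibroblast genes 1 was higher and 3 were lower (6249 to 8784 TPM against 4361 to 8093 TPM), of 8 adipocyte genes 1 was higher and 4 were lower (5000 to 8268 TPM against 3423 to 5557 TPM), all 5 erythroid genes were lower and all 6 mast cell genes were higher. The part of any cell type in the differences was not tested. The macrophage and adipocyte scores used as covariates are mean log2 levels of marker genes and themselves differed between the diets. At 20 weeks the macrophage score averaged 7.69 on CHOW and 8.35 on HFD, and the adipocyte score 6.86 and 6.21. With the adipocyte score as a covariate 6 members passed, all lower (C1rl, C3, C6, Cfb, Cfp and Clu), and with the macrophage score 5 passed, all lower (C1rl, C3, C6, Cfb and Cfp). The share of all genes called in these fits is not given, so the counts show only which members passed.

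**Figure D2:**
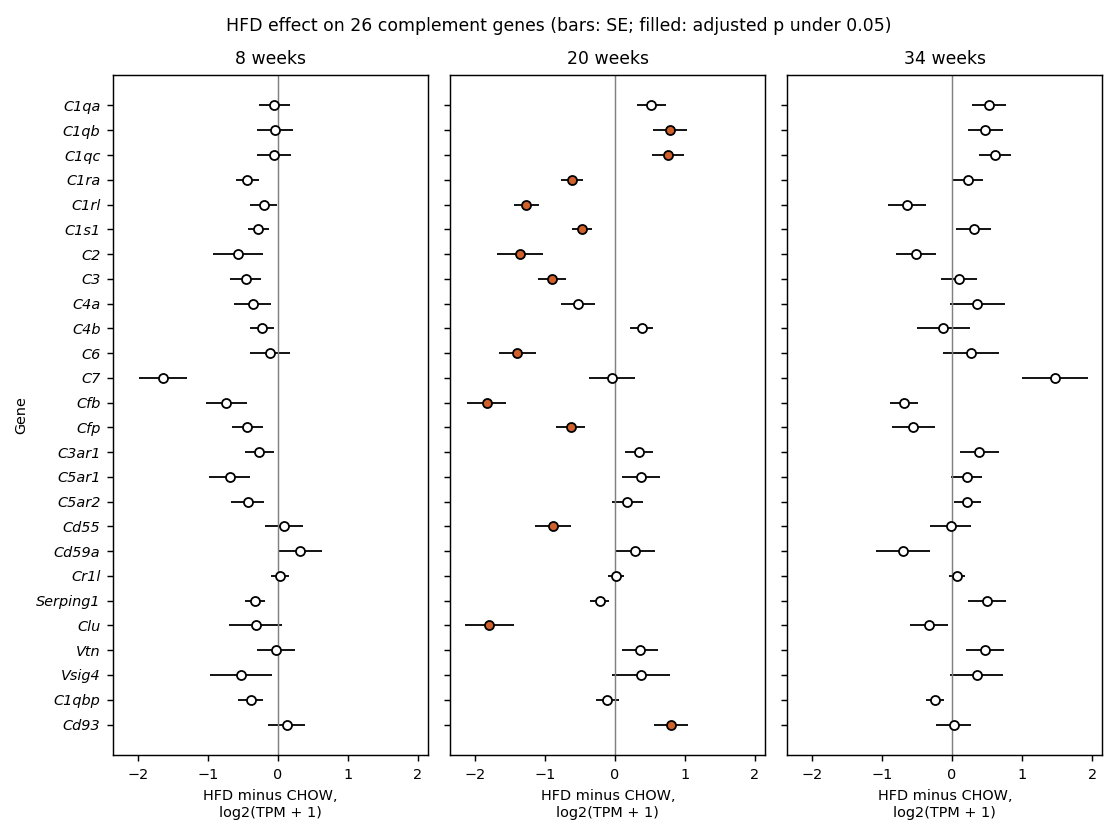
Difference between HFD and CHOW in log2(TPM + 1) for the 26 tested members (rows) at 8, 20 and 34 weeks (panels), as points with SE bars and filled where the limma adjusted p was under 0.05. All 13 filled points are in the 20 week panel, 3 right of 0 (C1qb, C1qc, Cd93) and 10 left of it, with Cfb farthest at -1.83.

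The receptors for complement fragments and most surface regulators showed no call at 20 weeks. C3ar1 differed by 0.34 ± 0.20 (limma adjusted p = 0.260), C5ar1 by 0.37 ± 0.27 (0.378) and its neighbour C5ar2 by 0.18 ± 0.22 (0.629). Vsig4, a phagocytic receptor for C3 fragments, differed by 0.37 ± 0.42 (0.593), Cr1l by 0.01 ± 0.12 (0.955), Cd59a by 0.29 ± 0.29 (0.545), Vtn (vitronectin) by 0.36 ± 0.26 (0.370) and C1qbp by -0.11 ± 0.17 (0.709). The 4 members under the minimum were tested only in the alternative with no filter. Hc stood at 0.0588 to 0.211 TPM in the CHOW libraries and at 0.681 to 2.05 TPM in the HFD libraries at 20 weeks, so that the groups did not overlap, but at levels near 0. With no filter Hc passed at 20 weeks (0.85 ± 0.12, limma adjusted p = 0.000422) and for 20 against 8 weeks on HFD (0.85 ± 0.12, 0.000231). Cfi was listed at 0 in all 5 CHOW libraries at 20 weeks and reached at most 0.238 TPM on HFD, and with no filter it passed at 20 weeks (0.17 ± 0.04, limma adjusted p = 0.0229). Masp1 ran from 0 to 1.64 TPM and Masp2 from 0 to 1.00 TPM over all libraries, with no group apart from the others.

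At 34 weeks 0 of the 26 members passed (limma, 13982 genes tested), against 0.243% of all genes. An unadjusted p under 0.05 was found for 5, with no share of all genes given. No member was separated, against 0.937% of all genes. Positive differences were found for 17 members, and the median was 0.21 log2 units against 0.10 over all genes. Without CHOW replicates 5 to 7 there were 14 positive differences, and the median was 0.01 against 0.02 over all genes. C1qb stood at a lowest of 777, a median of 1774 and a highest of 2809 TPM on CHOW and at 1722, 2576 and 2993 TPM on HFD, and differed by 0.48 ± 0.25 (SE, adjusted p = 0.414). C1qc differed by 0.61 ± 0.23 (adjusted p = 0.292). The lowest CHOW value of both chains was in replicate 6, the library richest in adipocyte genes, and without CHOW replicates 5 to 7 the differences were 0.15 ± 0.17 and 0.33 ± 0.18. Cfb stood at 293, 436 and 712 TPM on CHOW and at 199, 284 and 329 TPM on HFD. Its difference of -0.69 ± 0.20 (adjusted p = 0.192) was -0.75 ± 0.22 without the adipocyte-rich libraries. C3 differed by 0.10 ± 0.26 (adjusted p = 0.876), with a 95% interval of -0.40 to 0.61, and turned to -0.21 ± 0.24 without the same 3 libraries. C7 stood at 45.5, 72.6 and 359 TPM on CHOW and at 144, 286 and 429 TPM on HFD, a difference of 1.47 ± 0.47 (adjusted p = 0.234) that was 0.81 ± 0.47 without the 3 libraries. C4b reached 1195 TPM in CHOW replicate 6, against 268 to 498 TPM on HFD, and the CHOW mean was 518 ± 350.1 TPM (SD, n = 7) over all libraries and 367 ± 247 TPM (SD, n = 4) without replicates 5 to 7. Cd59a, an inhibitor of the terminal pore, was at 108 TPM in the same library and averaged 33.2 TPM on CHOW with, and 17.5 TPM without, replicates 5 to 7.

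**Figure D3:**
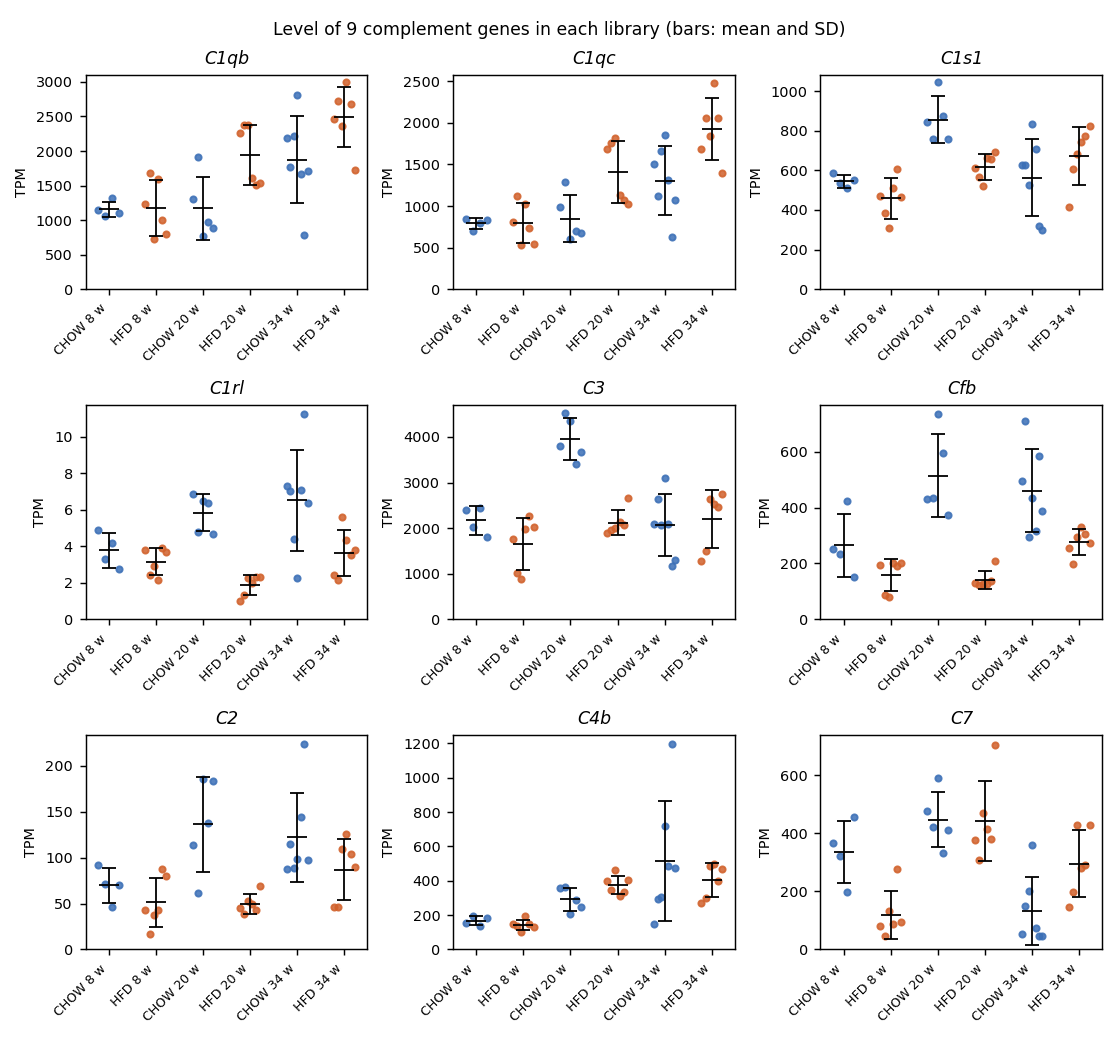
TPM of 9 members in each library (points, blue for CHOW and orange for HFD) by diet and weeks on the diet, with the group mean and SD as black bars. C3, Cfb, C1rl and C1s1 of HFD at 20 weeks lie below every CHOW library of that time, C7 is low on HFD at 8 weeks (mean 120 TPM), and 1 CHOW library at 34 weeks holds 1195 TPM of C4b.

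Time on the diet was compared within each diet, at 20 against 8 weeks. These comparisons use the same libraries as those of the diets and are not independent of them. On CHOW 1 of 26 members passed (3.85%), against 0.613% of all genes. This was C1ra, which went from 253, 223, 244 and 209 TPM to 353 TPM or more and rose by 0.75 ± 0.17 (limma adjusted p = 0.0462). An unadjusted p under 0.05 was reached by 12 members (share of all genes not given). The libraries of 6 members were separated (23.1%, against 6.28% of all genes), all higher at 20 weeks. They were C1ra, C1s1, C3, C4b, C6 and Serping1. C3 went from 2403, 2030.5, 2443 and 1799 TPM to 3416 TPM or more, by 0.87 ± 0.23 (adjusted p = 0.0843), and C4b from 153, 194, 138 and 186 TPM to 205 TPM or more, by 0.78 ± 0.18 (adjusted p = 0.0544). The median difference of the members was 0.36 log2 units, and that of all genes -0.09. The call of C1ra was lost without any 1 of CHOW replicates 1, 2 and 4 at 8 weeks or 3, 4 and 5 at 20 weeks (adjusted p up to 0.190). Without CHOW replicate 2 at 20 weeks 2 members passed (C1ra, 0.0405, and Clu, 0.0478). The count of calls was 6 without the libraries with RNA of other tissues, which include no CHOW library of these times, and the cause of the change was not tested. The share of all genes called in that fit is not given. The adipocyte score averaged 7.82 on CHOW at 8 weeks and 6.86 at 20 weeks, and its part in these differences was not tested.

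On HFD 12 of 26 members passed between 8 and 20 weeks (46.2%), against 8.78% of all genes, and 11 of them were higher at 20 weeks, where 6.12% of all genes were called higher. Separated libraries were found for 4 members (15.4%, 3 higher and 1 lower), against 4.17% of all genes. C4b stood at 104, 142 and 195 TPM (lowest, median, highest) at 8 weeks and at 313, 372 and 460.3 TPM at 20 weeks. No library of 8 weeks came near those of 20 weeks, and C4b rose by 1.39 ± 0.16 (limma adjusted p = 1.56e-05). Its close copy C4a stayed at 12.5 ± 4.27 TPM (SD, n = 6) and 16.4 ± 3.02 TPM (SD, n = 6), and reads of both genes are hard to tell apart. C7 stood at 45.1, 91.2 and 278 TPM and then at 308, 397 and 703 TPM, and rose by 2.05 ± 0.31 (adjusted p = 0.000225), the largest difference of any member in this comparison. C5ar1, the receptor of C5a on myeloid cells, stood at 93.8, 164 and 260.1 TPM and then at 312, 407 and 626 TPM, and rose by 1.37 ± 0.26 (adjusted p = 0.00218). Cd55 was separated in the other direction, from 107, 141 and 234 TPM to 38.0, 77.7 and 99.2 TPM, and fell by 1.04 (SE 0.24, adjusted p = 0.00990).

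Serping1 also rose on HFD between 8 and 20 weeks, by 0.65 ± 0.13 (limma adjusted p = 0.00320), from 519.9, 765 and 1029 TPM (lowest, median, highest) to 925.5, 1218 and 1290 TPM. C3ar1 went from 55.4, 95.3 and 154 TPM to 129, 159.7 and 228 TPM and rose by 0.75 ± 0.19 (0.0176). Vsig4 went from 2.76, 3.80 and 9.51 TPM to 8.2, 13.7 and 26.2 TPM and rose by 1.32 ± 0.40 (0.0427). For all 3 the highest libraries of 8 weeks lay inside the range of 20 weeks. The C1q chains rose by 0.85 ± 0.22 (C1qc, 0.0191), 0.67 ± 0.19 (C1qa, 0.0352) and 0.77 ± 0.23 (C1qb, 0.0410), and the proteases by 0.57 ± 0.15 (C1ra, 0.0187) and 0.45 ± 0.14 (C1s1, 0.0436). The calls of C1qa (adjusted p up to 0.0847) and C1qb (up to 0.0962) were lost without any 1 of HFD replicates 1, 3, 5 and 6 at 8 weeks or 1, 2 and 3 at 20 weeks. That of C1qc was lost without HFD replicate 6 at 8 weeks (0.0531), and that of Vsig4 (up to 0.0927) without any 1 of HFD replicates 1, 2, 3 and 6 at 8 weeks or 1, 2 and 3 at 20 weeks. That of C1s1 was kept only without HFD replicate 4 or 5 at 8 weeks or 3 at 20 weeks (otherwise up to 0.0822). HFD replicate 3 at 8 weeks held 74.2 TPM of C1rb and 14.2 TPM of C1s2, the near copies of C1ra and C1s1. It also had the lowest C1ra and C1s1 of its group, and the part of the copies was not tested. With no filter C1qa, C1qb, C1s1 and Vsig4 were not called, and with quantile normalization C1qa, C1ra, C1s1 and Vsig4 were not. With quantile normalization the split was 7 higher and 3 lower, and with median-ratio scaling 11 higher and 3 lower. C3 differed by 0.43 ± 0.20 (adjusted p = 0.160). The HFD libraries of 8 weeks include that with seminal vesicle RNA and that with most erythroid RNA. Without these and the germ cell library of 20 weeks 5 members passed, namely C4b (1.29 ± 0.17, adjusted p = 0.000295), C7 (2.15 ± 0.38, 0.00315), C5ar1 (1.12 ± 0.27, 0.0221), Serping1 (0.50 ± 0.12, 0.0174) and Cd55 (-1.14 ± 0.29, 0.0250). Without HFD replicate 6 of 8 weeks alone the count was 7. Over the same interval all 5 erythroid genes were lower, all 6 mast cell genes and 7 of 8 lipid-associated macrophage genes were higher, and 5 of 8 adipocyte genes were lower. With the adipocyte score as a covariate C4b, C7 and Serping1 passed. With the macrophage score 6 members passed (C4b, C7, C5ar1, Serping1 and C1ra higher and Cfp lower). Shares of all genes called in these alternative fits are not given.

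The diet by time interaction, which asks whether the HFD difference at 20 weeks differs from that at 8 weeks, was passed by 0 of 26 members (limma), against 0.297% of all genes. An unadjusted p under 0.05 was reached by 10 (share of all genes not given). The lowest adjusted p was that of C1rl (-1.06 ± 0.27, adjusted p = 0.102), followed by C7 (1.60 ± 0.47, 0.182) and C6 (-1.28 ± 0.39, 0.196). So the calls at 20 weeks and their absence at 8 weeks do not show that the diet effect on any member differed between the times. With quantile normalization C1rl passed (-1.33 ± 0.28, adjusted p = 0.0316). With library quality weights Clu, C1rl, C7 and Cfb passed, without HFD replicate 5 at 8 weeks C7 passed (0.0384), and without CHOW replicate 2 at 20 weeks Clu passed (0.0478).

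Ratios between members within a library do not depend on the total to which TPM is scaled. For 10 fixed pairs at 3 times, 30 exact permutation tests (two-sided) were made and adjusted together. At 20 weeks the smallest p that 6 against 5 libraries allow is 0.00216. Ratios are given as differences of log2(TPM + 1). C3 to Cfb was 3.91 ± 0.14 (SD, n = 6) on HFD and 2.98 ± 0.41 (SD, n = 5) on CHOW at 20 weeks, with no overlap (exact permutation p = 0.00216, adjusted p = 0.0216), so Cfb fell by more than C3. The same ratio at 34 weeks was 2.94 ± 0.35 (SD, n = 6) against 2.15 ± 0.68 (SD, n = 7; exact permutation p = 0.0239, adjusted p = 0.102). C4b to C3 was -2.50 ± 0.26 (SD, n = 6) on HFD and -3.78 ± 0.38 (SD, n = 5) on CHOW at 20 weeks, again with no overlap (exact permutation p = 0.00216, adjusted p = 0.0216). C1s1 to its inhibitor Serping1 was lower on HFD by 0.26 (exact permutation p = 0.00433, adjusted p = 0.0260).

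The C1q chains keep nearly fixed proportions, and the assembled protein holds them in equal parts. Over the 34 libraries C1qa stood at 0.735 ± 0.0715 of C1qb by TPM (SD, n = 34, range 0.610 to 0.881) and C1qc at 0.719 ± 0.0577 (SD, n = 34, range 0.602 to 0.830). Even so, C1qa to C1qb at 20 weeks was 0.690 ± 0.0294 (SD, n = 6) on HFD and 0.830 ± 0.0613 (SD, n = 5) on CHOW, a difference of -0.26 log2 units (exact permutation p = 0.00433, adjusted p = 0.0260). C1qc to C1qb differed by -0.03 at that time (exact permutation p = 0.500, adjusted p = 0.686). C1qa to C1s1, recognition chain to protease, was 1.15 ± 0.450 by TPM on CHOW (SD, n = 5) and 2.25 ± 0.787 on HFD (SD, n = 6) at 20 weeks, which did not pass (exact permutation p = 0.0216, adjusted p = 0.102). The fifth pair that passed, C3 to Cfi, rests on the pseudocount because Cfi is listed near 0, and is not read further. Without any 1 of HFD replicates 1, 2, 4, 5 and 6 at 20 weeks 0 of the 30 tests passed, without any 1 of CHOW replicates 1, 3, 4 and 5 there 3 passed, and without CHOW replicate 2 there 6 passed. Without the libraries with RNA of other tissues 0 passed. Fewer libraries raise the smallest p that the exact test can reach, there and with any 1 HFD library left out. A loss there is therefore not read as a change of the ratio. With any 1 library of 20 weeks left out, the difference was 0.82 to 1.03 for C3 to Cfb and 1.13 to 1.37 for C4b to C3.

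**Figure D4:**
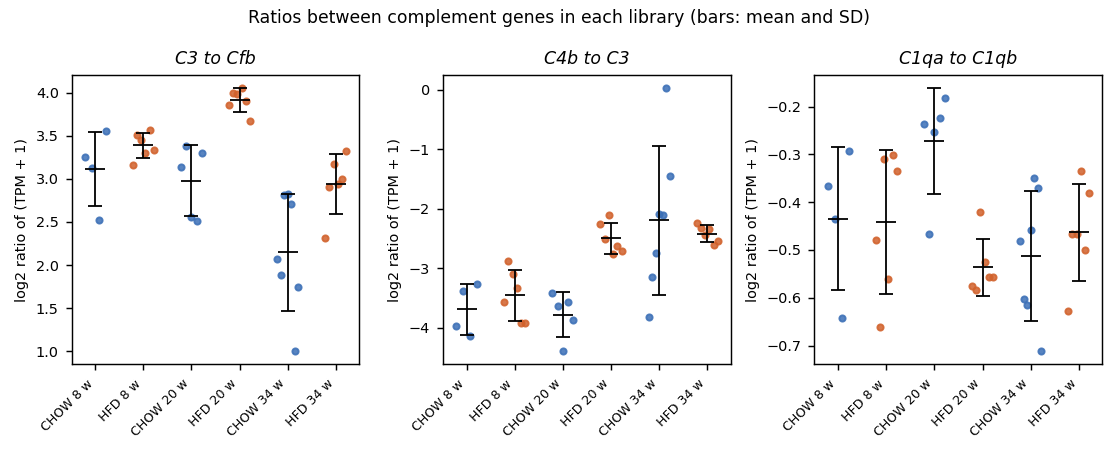
Log2 ratio of (TPM + 1) of C3 to Cfb, C4b to C3 and C1qa to C1qb in each library (points, blue for CHOW and orange for HFD) by diet and weeks on the diet, with mean and SD as bars. At 20 weeks the HFD libraries lie above all CHOW libraries for C3 to Cfb (3.67 or more against 3.38 or less) and for C4b to C3 (-2.77 or more against -3.42 or less), and mostly below them for C1qa to C1qb.

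After the mean of each group was taken out, the members fell into sets that vary together over the 34 libraries. These correlations of log2(TPM + 1) describe the libraries, which share composition and total, and carry no test. C1qa and C1qc correlated with r = 0.98, C1qb and C1qc with r = 0.97, and C1qb with the receptors C3ar1 (r = 0.83) and C5ar1 (r = 0.80). C1ra correlated with C1s1 (r = 0.94), C3 (r = 0.92) and Serping1 (r = 0.86), and with C1qb at r = 0.10. C2 went with Clu (r = 0.73), and against C1qb (r = -0.61). Against scores of the marker lists, the C1q chains, C3ar1, C5ar1 and Cd93 correlated best with macrophage genes (r = 0.80 to 0.94). C1s1 (r = 0.86), Serping1 (r = 0.83), C1ra (r = 0.73), Cd55 (r = 0.66) and C3 (r = 0.65) correlated best with progenitor and fibroblast genes, with mesothelial genes close behind for C1ra (r = 0.71) and C3 (r = 0.64). C7 correlated best with mast cell genes (r = 0.67), Clu (r = 0.83), C2 (r = 0.59) and Cfb (r = 0.56) with mesothelial genes, and Cd59a (r = 0.75) with adipocyte genes.

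**Figure D5:**
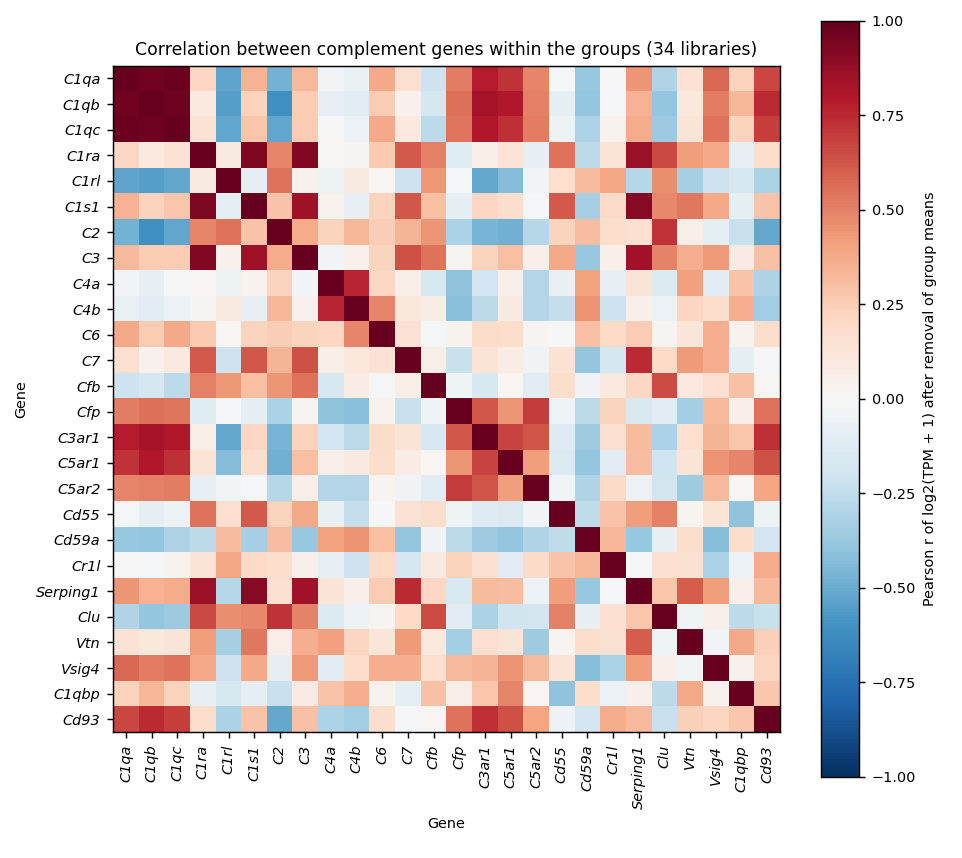
Pearson r between the 26 tested members (rows and columns) over 34 libraries, of log2(TPM + 1) after the group means were removed, from blue (-1) to red (1). A red block joins C1qa, C1qb, C1qc, C3ar1, C5ar1 and Cd93, and another joins C1ra, C1s1, C3 and Serping1 (C1ra to C1s1 r = 0.94).

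Of 32 further complement genes outside the set that were found, 18 reached the minimum at 8 and 20 weeks and 10 at 34 weeks. At 20 weeks 3 of the 18 passed (limma), a share of 16.7% near the 14.3% of all genes. Fcna, a ficolin that starts the lectin pathway, fell on HFD by 1.88 on the log2 scale (SE 0.26, adjusted p = 0.000116), Ptx3, a pentraxin that binds C1q, fell by 1.25 (SE 0.31, adjusted p = 0.0102), and Itgax, a chain of complement receptor 4 and one of the lipid-associated macrophage genes, rose by 2.94 ± 0.53 (adjusted p = 0.00116). Between 8 and 20 weeks on HFD Ptx3 (2.23 ± 0.29, adjusted p = 5.18e-05) and Itgax (1.68 ± 0.50, 0.0424) rose, and Fcna fell by 1.12 (SE 0.24, 0.00621). These were 3 of 18 (16.7%, against 8.78% of all genes). On CHOW 1 of 18 passed (5.56%, against 0.613% of all genes), and Ptx3 rose by 2.69 ± 0.34 (adjusted p = 0.00135). At 8 weeks 0 of 18 and at 34 weeks 0 of 10 passed (limma, unadjusted p under 0.05 for 5 and 2, share of all genes not given). The plasma components Mbl1, Mbl2 and Cpb2 were listed at 0 in all 34 libraries.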

How the data were processed

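RNA-seq of the SVF was analysed in 34 libraries, grouped by their titles. The authors used FastQC, MultiQC, Trimmomatic and Salmon with gencode M10 transcripts (no tool versions are stated in the labels or methods) and deposited TPM per gene, in 1 table of 21 libraries (8 and 20 weeks) and 1 of 13 (34 weeks), each library summing to 1000000. TPM keeps no read depth, so depth is unknown and no counting interval is given, and a gene's value drops if other RNA takes a larger share. Libraries had 13200 to 17213 genes at 1 TPM or more. Gene IDs were matched to gencode M21 (GRCm38), with a symbol for 31791 of 32098, and Cfhr4 was the only listed gene not found.

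Differences are on the log2(TPM + 1) scale, which understates changes of low genes. They were tested with limma 3.58.1 in R 4.3.3 (1 mean per group, mean-variance trend, Benjamini-Hochberg adjustment over all tested genes, threshold 0.05), tested on simulated data. Each table had its own fit and normalization, so the 34 week libraries enter no test with the others. Ratios were tested by exact permutation. The members, lists and tests were chosen with earlier results of these data known. Members called in at least 1 comparison are given in full, and the others by range or count unless a comparison turns on them. Alternatives were a pseudocount of 0.1 TPM, no filter or a mean of 5 TPM, other scalings, quality weights, a replicate block, marker score covariates, fewer groups in the fit and left-out libraries.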

Additional observations from a re-analysis of the deposited data

Results flagged for a closer look

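Of 156 sets of 4 to 7 values (26 members in 6 groups), 10 held a highest or lowest library far from the rest by Dixon's test at the 95% level, about as many as the 1 in 20 that chance flags. 3 of the 10 were in CHOW replicate 6 at 34 weeks, the library with 36000 summed TPM of adipocyte genes. There C1qb was lowest at 777 TPM (group median 1770 TPM), Cd93 was lowest at 29.6 TPM (median 87.2 TPM) and Cd59a was highest at 108 TPM (median 23.3 TPM).

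In HFD replicate 6 at 20 weeks both C3 (2670 TPM, median 2030 TPM) and Cfb (208 TPM, median 128 TPM) were highest, and both values still lay below every CHOW library of that time. In HFD replicate 3 at 20 weeks C6 was highest at 7.70 TPM and Serping1 lowest at 926 TPM. C1qbp was highest at 88.7 TPM in CHOW replicate 2 at 20 weeks, Cd93 was lowest at 50.2 TPM in CHOW replicate 4 at 8 weeks, and Cd59a was lowest at 10.3 TPM in HFD replicate 2 at 34 weeks.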

How the results depend on the processing

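The count of members called at 20 weeks (13) stayed within 1.5 times under 9 of 11 alternatives, with 6 under the adipocyte score and 5 under the macrophage score, and ran from 7 to 13 when single libraries were left out. At 8 weeks the count (0) was 1 with quality weights and 1 with the macrophage score (C7), and 0 to 1 over left-out libraries. At 34 weeks (0) it was 1 with quality weights (C7) and 0 without any 1 library. For 20 against 8 weeks on HFD (12) it was 3 with the adipocyte score, 6 with the macrophage score, 5 without the libraries with RNA of other tissues, 7 with only both groups fitted, and 7 to 13 over left-out libraries. For CHOW (1) it was 0 with no filter, the replicate block or the adipocyte score, 2 with a mean of 5 TPM, 6 with median-ratio scaling, 3 with quantile normalization, 9 with quality weights, 4 with the macrophage score, 6 without the libraries with RNA of other tissues, 4 with only both groups fitted, and 0 to 2 over left-out libraries. The interaction count (0) was 1 with quantile normalization, 4 with quality weights, and 0 to 1 over left-out libraries. The ratio count (5) was 0 without the libraries with RNA of other tissues and 0 to 6 over left-out libraries. Fewer libraries raise the smallest p that its exact test can reach. The cause of these changes was not tested. The share of all genes called under each alternative or without each library is not given. The counts here therefore do not show whether the members kept their calls more often than other genes. With no filter the count at 20 weeks was 10, of which the 2 higher were Hc and Cfi, tested only there. C1qb, C1qc, Cd93, C1s1 and Cfp were not called in that fit, so its count hides a change of members. No called gene changed direction under an alternative, whereas the uncalled differences of the C1q chains at 8 weeks and of C3 at 34 weeks did without the libraries with RNA of other tissues. Quantile normalization moved the median of all genes at 20 weeks from 0.08 to -0.06 log2 units, with 3 members called higher and 11 lower there, and that of the interaction from 0.18 to -0.03.

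Whether replicate numbers pair the libraries was not settled. Of 28 pairs of libraries from different groups with the same number at 8 and 20 weeks, 13 correlated above 0.1 (r from -0.11 to 0.40). At 34 weeks 3 of 6 such pairs did. Libraries with different numbers were not compared, so these values cannot tell pairing from its absence. With the replicate number as a block the counts were 13 at 20 weeks (4 higher, 9 lower), 12 on HFD between times, 0 on CHOW between times, and 0 in the other comparisons.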
